A study of Mus musculus with 52 samples.

Results

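The nuclear genes for subunits of the oxidative phosphorylation (OXPHOS) chain were described in mouse pancreatic tumors under 4 treatments. Members were taken by name from the genes annotated as protein coding: Ndufa, Ndufb, Ndufc, Ndufs and Ndufv genes with a number, the 4 Sdh genes, the Uqcr genes, Cox4 to Cox8 and the Atp5 genes. The rule found 85 of the 27525 genes, with 38 in complex I, 4 in complex II, 8 in complex III, 17 in complex IV and 18 in complex V. A further 13 genes with such names are annotated as pseudogenes or otherwise not protein coding and were left out. All 85 had reads in every tumor and passed the filter on low values in every comparison.

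Bulk RNA was sequenced from individual subcutaneous tumors of male C57BL/6NHsd mice (8 to 10 weeks old by the methods, up to 12 by the reporting summary), collected on day 14 and not pooled, with 8 tumors in each group. All tumors grew from 1 KPC cell line, made from a tumor of a mouse that carried Pdx1-Cre with engineered alleles including Trp53 LSL.R172H/+. Mice were untreated, received a single injection of the STING agonist ADU-S100 (a synthetic cyclic dinucleotide that activates STING, an adaptor of innate DNA sensing) into the tumor, received 4 intraperitoneal doses of an agonistic antibody to the lymphotoxin-β receptor (anti-LTβR), or received both agents (combination). The comparisons ask how the messages of the respiratory chain stood in each treated group against untreated tumors, in the combination against each agent alone, and whether the agents acted additively.

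OXPHOS is carried out in the inner mitochondrial membrane. Complex I takes electrons from NADH and complex II from succinate, ubiquinone carries them to complex III, cytochrome c carries them to complex IV, which reduces oxygen, and the proton gradient drives ATP synthesis by complex V. Most subunits are encoded in the nucleus and a small core in mitochondrial DNA, and several complex IV subunits exist as a broadly expressed form and a form made mainly in striated muscle.

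Values are normalized counts: the reads of a gene after scaling of each library by its own size factor. Recovered reads per library ran from 12762453 to 15591986, and differences are on the log2(value + 1) scale. The tissue held more than tumor cells. The epithelial marker Krt8 averaged 9520 ± 2014 normalized counts (SD, n = 8) without treatment and 5024 ± 1021 after both agents (-0.92 on the log2 scale; limma adjusted p = 0.000124). Of the 12 epithelial markers Krt8, Krt18, Krt19, Krt7 and Lad1 fell in this comparison. Cdh1 (-0.27), Cldn4 (-0.21), Sfn (0.01), Muc1 (0.21), Esrp1 (0.24) and Epcam (0.56) did not pass, and Cldn7, at 3.93 and 12.7 normalized counts, was not tested. All 14 striated muscle markers were detected in all 32 tumors. The summed level of those 14 genes spanned 7748 to 163671 in the untreated group, 9602 to 282202 after ADU-S100, 9065 to 203032 after the antibody and 9455 to 487135 after both. On the mean log2 scale the muscle markers left a gap between 10.05 and 11.83, with 12 tumors below it and 20 above. Above the gap lay 3 untreated, 6 ADU-S100, 6 anti-LTβR and 5 combination tumors, so muscle RNA was spread unevenly over the groups. Combination tumor 6 had the highest mean of the muscle markers and of the OXPHOS members among all 32. Replicates are separate tumors, and whether any of them shared a mouse is not given in the sources used here, so p-values measure only the spread between these tumors. In bulk tissue, fewer cells of a type and less RNA per cell cannot be told apart.

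Untreated tumors 1 to 4 stood apart from untreated tumors 5 to 8, a split seen in the values. The mean log2 level of the 82 members other than Cox6a2, Cox7a1 and Cox8b was 9.36 to 9.58 in tumors 1 to 4 and 9.08 to 9.30 in tumors 5 to 8. Of the 24 treated tumors, only combination tumor 6 (9.67) was above the lowest of untreated tumors 1 to 4 by this mean. Over all 85 members the untreated means overlapped (9.18 to 9.41 and 8.91 to 9.21), and treated tumors ran from 8.84 to 9.63. The complex IV means overlapped too (8.32 to 8.98 and 8.08 to 8.70), while those of the other complexes did not. For 58 of 85 members all of untreated tumors 1 to 4 lay above all of 5 to 8 and for none below, beside 10.9% and 8.3% of 16909 genes. In the treated groups no member was divided between these numbers in either direction. Of all genes 1.15% to 1.6% were in each direction there, so none among 85 is near that share. The mean level of the cytosolic ribosomal protein genes was divided in the same way (10.06 to 10.50 and 9.90 to 9.95), while the epithelial (7.79 to 8.92 and 8.02 to 8.78) and muscle marker means (8.80 to 13.04 and 8.60 to 12.69) overlapped. The study's text describes these data both as 1 experiment and as combined experiments, no label ties a tumor to one, and the part of an experiment in the split was not tested. Each comparison with untreated tumors is therefore also given without tumors 1 to 4, a choice made after seeing the data. Such a fit holds fewer untreated tumors and leaves out those higher for the members, so smaller falls follow in part from the choice.

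The stretches upstream of 3 complex IV genes are shown because these genes behave differently below: Cox6a1 is the broadly expressed form of subunit 6a, and Cox7a1 and Cox8b are the muscle forms of subunits 7a and 8. The sequences are from RefSeq on GRCm38.p6, read 5′ to 3′ on the gene's strand, and end before the first exon. Capitals mark a match to the core of the NRF-1 site (GCGC, a pair of any bases, then GCGC) in Cox6a1 and to the E-box CAGCTG in Cox8b; Cox7a1 held neither, nor the ETS core CCGGAA.
Cox6a1, chr5:115348982-115349108, minus strand: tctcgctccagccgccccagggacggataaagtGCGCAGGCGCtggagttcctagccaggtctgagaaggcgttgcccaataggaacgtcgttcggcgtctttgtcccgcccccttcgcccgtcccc
Cox7a1, chr7:30184021-30184143, plus strand: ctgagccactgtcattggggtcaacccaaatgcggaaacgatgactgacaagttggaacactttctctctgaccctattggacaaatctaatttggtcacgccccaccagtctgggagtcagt
Cox8b, chr7:140900447-140900596, minus strand: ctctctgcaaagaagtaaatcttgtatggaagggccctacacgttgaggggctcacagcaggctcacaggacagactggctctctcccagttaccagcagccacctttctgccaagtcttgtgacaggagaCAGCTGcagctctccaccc

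Of the 84 member symbols, 68 had a promoter in the RefSeq table, and motifs were searched on both strands of the 250 bases before the start. NRF-1 and the ETS factor GABP are known activators of nuclear respiratory genes. The NRF-1 core was present in 14 of 68 member promoters (20.6%) and in 5.64% of 27025 genes. The ETS core was present in 20 members (29.4%) and in 13.6% of all genes. The E-box was present in 6 members (8.82%) and in 14.7% of all genes, and TATAAA in 6 members (8.82%) and in 14.3%. The YY1 core AAGATGGC was present in 1 member (1.47%) and in 1.83% of all genes. The HIF core ACGTG was present in 15 members (22.06%) and GCGTG in 28 (41.18%), beside 18.49% and 30.85% of all genes. The genes compared were not matched to the members for base content or expression. A match is a string of letters and not a measured binding site.

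Per kilobase of exon, the members of a complex were not made at equal message levels in untreated tumors. In complex V, Atp5a1, the catalytic-head α subunit, had the highest level at 2639 normalized counts per kilobase, and Atp5g2, 1 of 3 genes for the same c-ring protein, had the lowest at 12.6. In complex IV the range ran from 17.3 for Cox6b2, the form known from testis, to 2596 for its broadly expressed partner Cox6b1. Complex I ran from 11.7 for Ndufb4 to 1042 for Ndufb11, both accessory membrane-arm subunits. Complex III ran from 520 for the core protein gene Uqcrc1 to 1278 for the hinge protein gene Uqcrh. Complex II ran from 401 for Sdhc to 1302 for Sdhd, both of which encode its membrane anchor. The low value of Ndufb4 is uncertain, because the pseudogene Ndufb4c averaged 382 normalized counts in the same tumors and Ndufb4 itself 22.4, and reads may have been split between them.

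Combination against untreated tumors moved few of the members, and most of the falls did not pass without untreated tumors 1 to 4. Of 85, 1 rose and 5 fell, which is 7.06%, while 43.2% of the 16909 genes tested passed (19.6% higher and 23.6% lower). The median difference of the members was -0.07 on the log2 scale, with 63 of 85 below 0, beside -0.02 for all genes tested. The member that rose was Ndufa4l2, and those that fell were Ndufa12 and Ndufs8 of complex I, Cox6a1 and Cox7a2l of complex IV, and Atp5d of complex V. None of the 85 separated the 8 combination tumors from the 8 untreated ones without overlap, as 10.7% of all genes tested did. Without untreated tumors 1 to 4 only Ndufa4l2 (higher) and Cox6a1 (lower) were called, beside 32.7% of all genes (15.5% higher and 17.2% lower), and the median of the members was 0.07, with 18 of 85 below 0. Without untreated tumors 5 to 8 instead, 33 members fell and 1 rose, beside 42.7% of all genes (23.1% lower and 19.6% higher), with a median of -0.24.

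**Figure D1:**
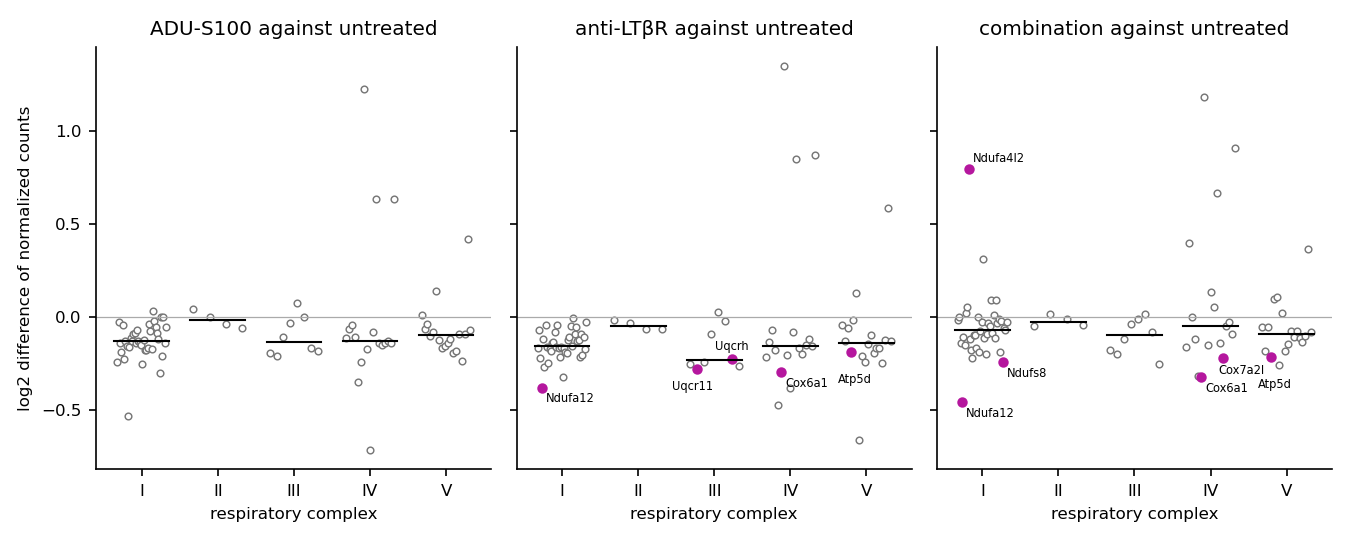
Log2 difference of normalized counts (vertical axis) of each of the 85 members by respiratory complex (horizontal axis), for each treatment against untreated tumors. Each point is a gene, filled where the limma adjusted p was below 0.05, and bars are medians; the open points above 0.5 in complex IV are Cox6a2, Cox7a1 and Cox8b, and the bulk of the points lies below 0 in all 3 panels, which use all 8 untreated tumors.

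Ndufa4l2 (chr10:127514967-127517154 on GRCm38) is a paralog of the complex I and IV associated subunit gene Ndufa4 and is known as a hypoxia-inducible gene and as a message of pericytes. It spanned 244 to 423 normalized counts (median 287) across the untreated tumors and 303 to 905 (median 535) across the combination tumors. Only the lowest combination tumor lay within the untreated range. The rise was 0.80 ± 0.18 (SE) on the log2 scale, with a limma adjusted p of 0.00217. Leaving out untreated tumors 1 to 4 gave 0.70 (limma adjusted p = 0.0429). Its partner Ndufa4 averaged 491 ± 85.6 (SD, n = 8) in untreated and 515 ± 119 in combination tumors, a difference of 0.06 ± 0.13 (SE) that did not pass (limma adjusted p = 0.76).

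Ndufa12 (chr10:94198720-94221443), an accessory subunit near the NADH-oxidising arm, spanned 321 to 513 (median 370.0) across the untreated tumors and 233 to 387 (median 264) across the combination tumors. All combination tumors but the highest, number 6, lay below every untreated tumor. It fell by 0.46 ± 0.11 on the log2 scale (limma adjusted p = 0.00273). Untreated tumors 1 to 4 ran from 380.1 to 513 and 5 to 8 from 321 to 360, and without the former the difference was -0.29 and did not pass (limma adjusted p = 0.066). Ndufa12-ps, a pseudogene that averaged 550 normalized counts in untreated tumors, had a difference of -0.31 that did not pass (limma adjusted p = 0.0687), and reads may be shared between the copies.

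Ndufs8 (chr19:3908863-3912774), which encodes an iron-sulfur subunit of the complex I core, spanned 501 to 717 (median 639) across the untreated tumors and 476 to 603 (median 530) across the combination tumors. The groups overlapped, with 3 of 8 combination tumors below all untreated ones. It fell by 0.24 ± 0.08 on the log2 scale (limma adjusted p = 0.0196), but untreated tumors 1 to 4 ran from 659 to 717 and 5 to 8 from 501 to 619. Without tumors 1 to 4 the difference was -0.10 (limma adjusted p = 0.383). The other 35 complex I genes did not pass, and Ndufb10 had the smallest evidence of change at 0.00 ± 0.10 (SE; limma adjusted p = 0.995). The median over the 38 genes of complex I was -0.07, with 29 below 0.

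Complex II showed no call. Sdha, the flavoprotein that oxidises succinate in the citric acid cycle, averaged 3343 ± 245 (SD, n = 8) in untreated and 3263 ± 565 in combination tumors. Its difference was -0.05, with a 95% interval of -0.24 to 0.14. The intervals ran from -0.20 to 0.23 for the iron-sulfur subunit gene Sdhb, from -0.19 to 0.17 for the anchor gene Sdhc and from -0.19 to 0.10 for Sdhd. All 4 intervals included 0.

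Complex III showed no call either, with 7 of 8 genes below 0 and a median of -0.10. The smallest adjusted p was that of Uqcrq, which encodes the ubiquinone-binding small subunit, at 1250 ± 249 (SD, n = 8) in untreated and 1044 ± 179 in combination tumors (-0.25 ± 0.12, SE; limma adjusted p = 0.0946). Uqcr11 and Uqcr10, also small subunits, stood at -0.20 (limma adjusted p = 0.161) and -0.18 (limma adjusted p = 0.175). The core protein gene Uqcrc2 stood at -0.01 (limma adjusted p = 0.938).

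In complex IV, Cox6a1 (chr5:115345642-115348981), whose upstream stretch is printed above, spanned 1151 to 1930 (median 1400.0) across the untreated tumors and 1080 to 1237 (median 1121) across the combination tumors. The groups overlapped, with 5 of 8 combination tumors below every untreated one. It fell by 0.32 ± 0.08 on the log2 scale (limma adjusted p = 0.00413). Untreated tumors 1 to 4 (1353 to 1930) and 5 to 8 (1151 to 1447) overlapped, and without the former it still passed, at -0.18 (limma adjusted p = 0.0328). Cox7a2l (chr17:83501918-83517330), known as a factor of respiratory supercomplex assembly, spanned 1756 to 2694 (median 1999) across the untreated tumors and 1694 to 1851 (median 1761) across the combination tumors. It fell by 0.22 ± 0.08 (limma adjusted p = 0.0322), again with overlap. Untreated tumors 1 to 4 had 2099 to 2694 and untreated tumors 5 to 8 had 1756 to 1899, and without the former the difference was -0.03 (limma adjusted p = 0.524). Cox4i2, the oxygen-regulated form of subunit 4, had a difference of 0.40 ± 0.22 (SE; limma adjusted p = 0.143) at 22.8 and 30.8 normalized counts, and its common partner Cox4i1 one of -0.16 (limma adjusted p = 0.124). Cox5b-ps, a Cox5b copy annotated as protein coding, stood at -0.32 (limma adjusted p = 0.0989), and Cox5a at 0.00 (limma adjusted p = 0.989).

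In complex V, Atp5d (chr10:80138632-80145818), the δ subunit of the central stalk, spanned 1680 to 2400 (median 1949) across the untreated tumors and 1518 to 1952 (median 1673) across the combination tumors. The groups overlapped, with 4 of 8 combination tumors below every untreated one. It fell by 0.21 ± 0.07 on the log2 scale (limma adjusted p = 0.0182), with 2008 to 2400 in untreated tumors 1 to 4 and 1680 to 1891 in 5 to 8. Without tumors 1 to 4 the difference was -0.09 (limma adjusted p = 0.29). The catalytic β subunit gene Atp5b missed the threshold at -0.18 ± 0.07 (SE; limma adjusted p = 0.0544), and the peripheral-stalk gene Atp5h stood at -0.18 (limma adjusted p = 0.162). Of the 3 c-ring genes, Atp5g1 stood at 0.11 (95% interval -0.17 to 0.38), Atp5g2 at -0.26 (limma adjusted p = 0.311) and Atp5g3 at 0.02 (limma adjusted p = 0.865).

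**Figure D2:**
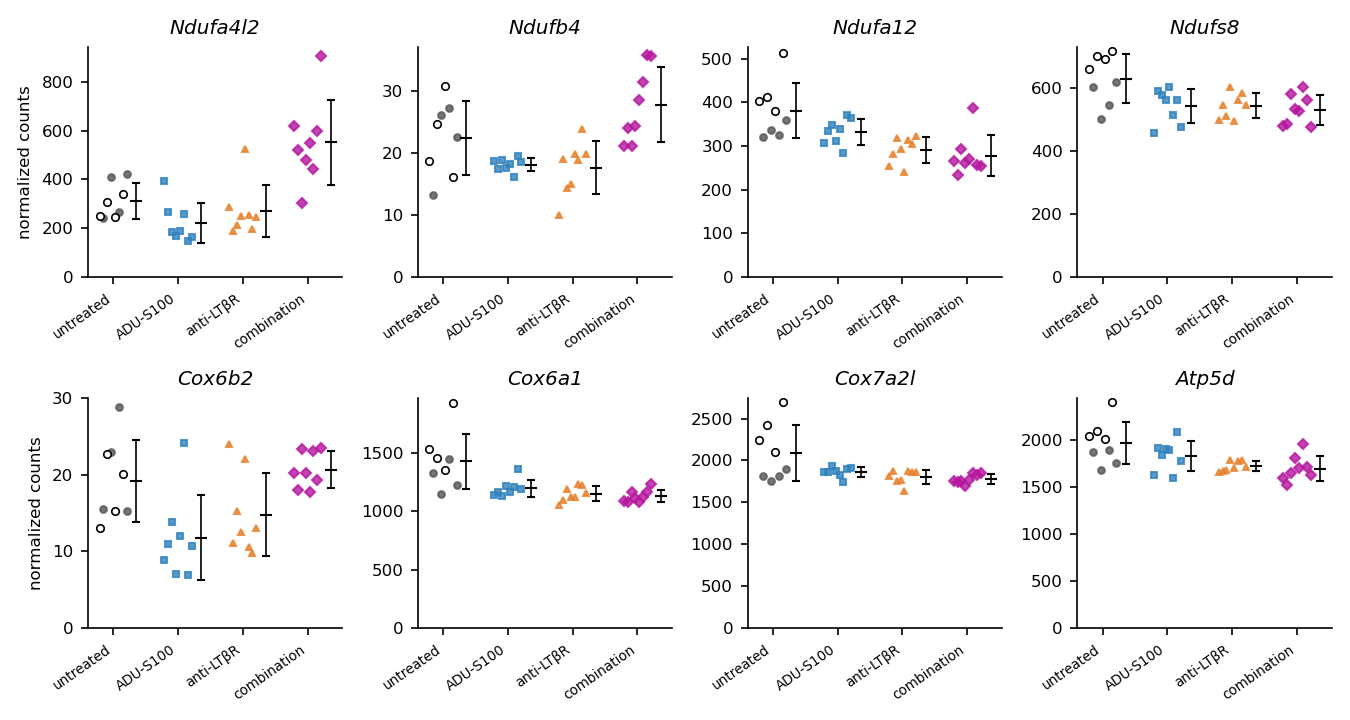
Normalized counts (vertical axes, from 0) of 8 members in each tumor of the 4 groups, with the mean and SD to the right of each group (n = 8) and untreated tumors 1 to 4 as open points. Ndufa4l2, Ndufb4 and Cox6b2 have their highest group mean in the combination, and Ndufa12, Ndufs8, Cox6a1, Cox7a2l and Atp5d have their highest in untreated tumors, with the open points above the filled untreated ones in all of these but Cox6a1, where they overlap.

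The muscle forms of complex IV differed widely between tumors within every group. Cox6a2, the muscle form of subunit 6a, spanned 36.1 to 525 (median 50.2) in the untreated group, 45.3 to 836 (median 353) after ADU-S100, 45.1 to 631 (median 449) after the antibody and 54.9 to 1306 (median 343) after both. Every group thus held tumors low and high for it, 36.2-fold apart over all 32, and its difference between combination and untreated tumors of 1.19 ± 0.80 (SE) did not pass (limma adjusted p = 0.243). Cox8b spanned 30.3-fold (0.91 ± 0.65, SE; limma adjusted p = 0.271) and Cox7a1 16.9-fold (0.67 ± 0.58, SE; limma adjusted p = 0.361). With group means removed, the 3 genes followed the muscle marker mean over the 32 tumors at r of 0.992, 0.949 and 0.945, as a description. The partners spanned 1.82-fold for Cox6a1, 1.54-fold for Cox8a and 1.79-fold for Cox7a2, and their r with the muscle markers was -0.03, 0.14 and 0.55. The second Atp5o identifier, which is no muscle form, spanned 23.9-fold with an r of 0.04.

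**Figure D3:**
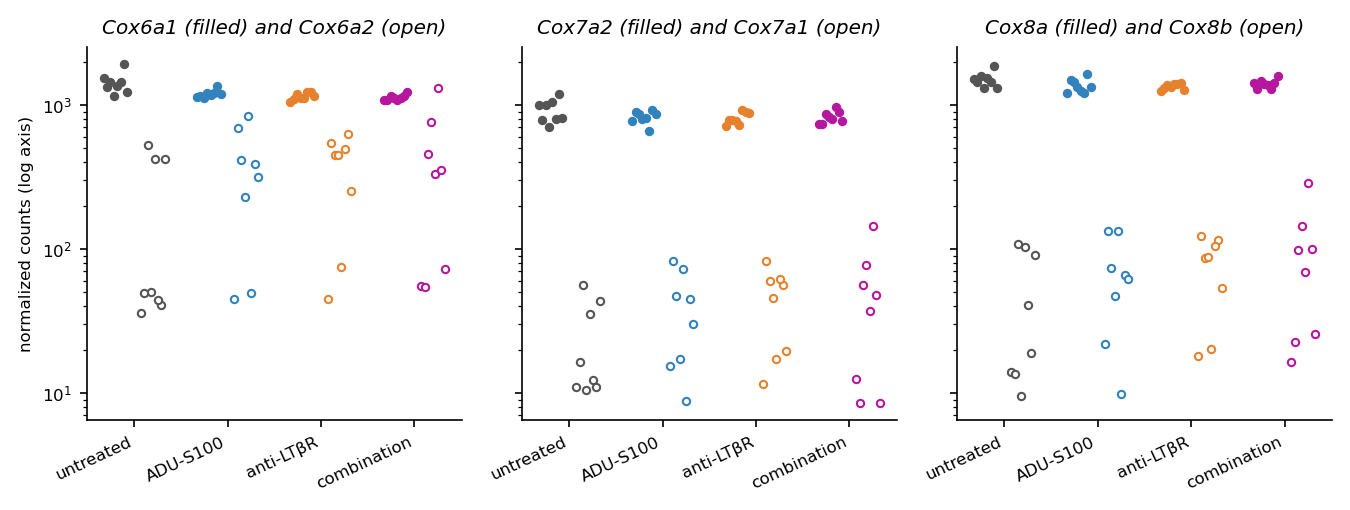
Normalized counts (log axis) in each tumor by group for 3 pairs of complex IV forms, with the broadly expressed form filled and the muscle form open. The filled points stay in a narrow band in every group, and the open points spread widely from low to high tumors within each group.

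The other members moved up and down together from tumor to tumor. With group means removed, the median r of a member with the mean of the remaining members was 0.871 over the 32 tumors, and 62 of 85 exceeded 0.8. The members come from the same libraries and are not independent. Ndufb9 of complex I followed the rest most closely (0.964), and 6 members had r below 0.3: Ndufb4, Cox4i2, Atp5g2, the second Atp5o identifier, Cox6b2 (-0.344) and Ndufa4l2 (-0.442). The median member spanned 1.79-fold from the lowest to the highest tumor, and 60 of 85 spanned less than 2-fold.

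The mean log2 level of the 82 members other than Cox6a2, Cox7a1 and Cox8b averaged 9.34 ± 0.17 (SD, n = 8) without treatment and 9.28 ± 0.18 after both agents. It was 9.22 ± 0.11 after ADU-S100 and 9.19 ± 0.12 after the antibody. With group means removed, the r of a member with the muscle markers over the 32 tumors had a median of 0.673, and 69 of 85 were above 0.5. Because the tumors fell into separate clusters along the muscle markers, the relation of the mean level was also described within each, with group means kept. Among the 12 tumors below the gap, Pearson's r was -0.12 and Spearman's rho 0.01. Among the 20 above it, r was 0.62 and rho 0.49, and r dropped to 0.29 without the 2 tumors farthest from the median, so the value within that cluster rests on those tumors. No p is given, since the tumors come from 4 groups.

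**Figure D4:**
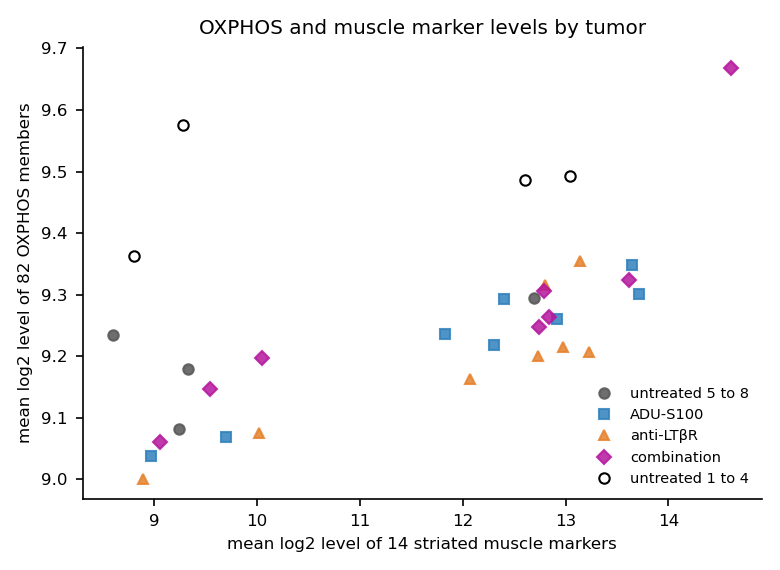
Mean log2 level of 82 OXPHOS members (vertical axis) against the mean log2 level of 14 striated muscle markers (horizontal axis) in each of 32 tumors, by group, with untreated tumors 1 to 4 as open circles. Tumors fall below 10.05 or above 11.83 on the horizontal axis, and combination tumor 6 is highest on both axes.

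Because muscle RNA differed between tumors, the fits were repeated with the muscle marker mean as a covariate, a choice made after seeing the data. In combination against untreated tumors, 17 members then fell and 1 rose, beside 40% of all genes called (21.3% lower and 18.7% higher). The median was -0.16, with 80 of 85 below 0. Of the 6 members called without the covariate, each was called with it, and the 12 added included Ndufb6, Ndufs6, Ndufb11, Ndufa6, Uqcrq, Uqcr11, Uqcr10, Cox5b-ps, Cox6b1, Atp5b and Atp5h. Cox6a2, Cox8b and Cox7a1 stood at -0.08, -0.04 and -0.20, with none past the threshold. With the epithelial marker mean as covariate, also chosen after seeing the data, 12 members fell and 1 rose, beside 41% of all genes called (21.1% lower and 19.9% higher). Without combination tumor 6 the counts were also 12 and 1, beside 39.8% of all genes (21.5% lower and 18.2% higher). With untreated tumors 1 to 4 left out, the muscle covariate gave 2 members that fell (Ndufa12 and Ndufs8) and 1 that rose (Ndufa4l2), beside 26.3% of all genes (13.1% lower and 13.2% higher), with a median of -0.04. The part of cell content in the differences was not tested beyond these fits.

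Anti-LTβR against untreated tumors gave 5 members that fell and none that rose (5.88%), beside 15.3% of 16691 genes called, 8.1% lower and 7.21% higher. The median was -0.15, with 79 of 85 below 0 and all 38 genes of complex I among them, beside a median of 0.00 for all genes tested. Ndufa12 spanned 241 to 323 (median 299) with the antibody and fell by 0.38 ± 0.09 on the log2 scale (limma adjusted p = 0.0155), with 7 of 8 tumors below every untreated one. Cox6a1 ran from 1058 to 1238 (median 1140.0) and fell by 0.30 ± 0.08 (limma adjusted p = 0.0232). Atp5d ran from 1655 to 1783 (median 1703) and fell by 0.19 ± 0.06 (limma adjusted p = 0.0395). These 3 genes were also called in the combination against untreated tumors, a comparison that shares the untreated tumors. None of the 85 separated the groups without overlap, as 1.77% of all genes tested did. Leaving out untreated tumors 1 to 4, limma called none of the 85 (4 had an unadjusted p below 0.05), beside 7.35% of all genes (3.05% lower and 4.3% higher), and the median was 0.02. The differences then were -0.21 for Ndufa12, -0.16 for Cox6a1 and -0.07 for Atp5d. Without tumors 5 to 8 instead, 57 fell and none rose, beside 29.7% of all genes (16.8% lower and 12.9% higher).

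The remaining calls were in complex III. Uqcr11 averaged 510 ± 69.3 (SD, n = 8) in untreated and 419 ± 52.2 in anti-LTβR tumors and fell by 0.28 ± 0.09 (limma adjusted p = 0.0428). Uqcrh averaged 1581 ± 204 and 1349 ± 112 and fell by 0.22 ± 0.07 (limma adjusted p = 0.0496). Atp5g2 had the lowest difference of all members at -0.66 ± 0.23 (SE), on 21.1 and 13.3 normalized counts, and did not pass (limma adjusted p = 0.0559). With the muscle covariate 14 members fell and none rose, beside 8.74% of genes called (4.35% lower and 4.39% higher), but Cox6a1 (-0.29; limma adjusted p = 0.0545) and Atp5d (-0.20; limma adjusted p = 0.0655) were not among them, at differences close to those without it. With the epithelial covariate none of the 85 passed, while 2.7% of all genes did (1% lower and 1.7% higher). The differences of the 5 genes were about as large as without it, at -0.42 for Ndufa12 (limma adjusted p = 0.0551), -0.28 for Cox6a1 (limma adjusted p = 0.103), -0.20 for Atp5d (limma adjusted p = 0.114), -0.36 for Uqcr11 (limma adjusted p = 0.0585) and -0.26 for Uqcrh (limma adjusted p = 0.0936). Of 11 epithelial markers 5 fell in this comparison, with a median of -0.55. The mean log2 level of the leukocyte markers was 8.60 ± 0.32 (SD, n = 8) in untreated and 9.09 ± 0.18 in anti-LTβR tumors. It was 7.355 ± 0.19 and 7.69 ± 0.17 for the endothelial markers and 11.93 ± 0.23 and 11.98 ± 0.30 for the fibroblast markers. The adipocyte mean went the other way (6.27 ± 1.35 and 5.88 ± 0.83). Their part in the member differences was not tested. Uqcr11 stood at -0.12 and Uqcrh at -0.07 without untreated tumors 1 to 4, and with the muscle covariate as well Ndufa12 alone was called, beside 3.47% of all genes (1.01% lower and 2.46% higher). Atp5d and Uqcr11 each passed in 6 of 13 alternative fits, and Uqcrh in 10 of 17.

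ADU-S100 against untreated tumors gave no call among the members or among the 16613 genes tested (0%) with limma, while 13 members and 2408 genes had an unadjusted p below 0.05. On recovered reads edgeR called 1 gene and DESeq2 39 of 15378, none of them among the 61 members tested there. The median of the members was -0.12, with 72 of 85 below 0, beside -0.00 for all genes. With the muscle covariate the median was -0.19, with no member called and 1 gene of all (0.00602%), which was lower. None of the 85 separated the groups without overlap, as 0.0421% of all genes did. Without untreated tumors 1 to 4 the median was 0.05 and limma again called none of the members or of all genes (0%), with 4 members and 1186 genes at an unadjusted p below 0.05. Without tumors 5 to 8 it called 41 members, all lower, beside 16.8% of all genes (8.55% lower and 8.29% higher). Cox6b2 stood at -0.71 ± 0.24 (SE; limma adjusted p = 0.282), Cox6a1 at -0.24 ± 0.08 (limma adjusted p = 0.282) and Ndufa1, an accessory membrane subunit essential for complex I assembly, at -0.24 ± 0.08 (limma adjusted p = 0.288). Cox6a1 spanned 1128 to 1362 (median 1181) with ADU-S100, with 2 of 8 tumors below every untreated one.

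In combination against anti-LTβR tumors 3 members rose and none fell (3.53%), beside 26.6% of 16932 genes called, 11.3% higher and 15.3% lower. None separated the groups without overlap, as 3.15% of all genes did. Ndufa4l2 spanned 189 to 527 (median 248) with the antibody alone and was 1.04 ± 0.21 higher on the log2 scale with both agents (limma adjusted p = 0.00264). The groups overlapped, and 4 of 8 tumors given both agents lay above all others. Ndufb4 spanned 10.03 to 23.8 (median 18.9) against 21.0 to 35.7 (median 26.4) in the combination and was 0.64 ± 0.18 higher (limma adjusted p = 0.0142). Cox6b2 spanned 9.75 to 24.0 (median 12.8) against 17.7 to 23.5 (median 20.2) and was 0.51 ± 0.18 higher (limma adjusted p = 0.0445), a call that held in 4 of 14 alternative fits.

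In combination against ADU-S100 tumors 4 members rose and 1 fell (5.88%), beside 46.2% of 16811 genes called, 20.2% higher and 26% lower. Ndufa4l2 spanned 148 to 392 (median 187) with ADU-S100 and was 1.33 ± 0.21 higher in the combination (limma adjusted p = 0.000123). Ndufb4 spanned 16.02 to 19.4 (median 18.4) with ADU-S100, below all 8 combination tumors, and was 0.57 ± 0.13 higher (limma adjusted p = 0.00251). It was the only one of the 85 without overlap in any of the 5 comparisons between groups, while 12% of all genes tested had none in this one. The pseudogene Ndufb4c, chosen after its values were seen, had a difference of 0.09 ± 0.12 (SE; limma adjusted p = 0.577) in the same tumors.

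Cox6b2 was 0.85 ± 0.21 higher in the combination than with ADU-S100 (limma adjusted p = 0.00314), and Ndufa1 0.22 ± 0.07 higher (limma adjusted p = 0.0166). Ndufa12 was lower by 0.27 ± 0.09 (difference -0.27; limma adjusted p = 0.0204). The median of the 85 was 0.02 here and 0.06 against anti-LTβR, on the log2 scale. With the muscle covariate 9 members were higher and 3 lower than with ADU-S100 (22.6% and 27.5% of all genes, 50.1% in all), and 6 higher and none lower than with anti-LTβR (13.3% and 17% of all genes, 30.4% in all).

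The interaction asks whether the combination departed from the sum of the single effects, and a positive value means that it lay above that sum. It passed for 7 of 85 members, all positive (8.24%), beside 18.4% of 17649 genes called, 7.33% positive and 11% negative. Of the 85, 75 were above 0, with a median of 0.17, beside -0.01 for all genes tested. With untreated tumors 1 to 4 left out, the interaction passed for Ndufa4l2, Cox6b2 and Ndufb4, all positive, beside 12.3% of all genes (5.69% positive and 6.61% negative), and the median was -0.02, with 40 of 85 above 0. Without tumors 5 to 8 it passed for 37, all positive, beside 24.7% of all genes (11.1% positive and 13.6% negative). With all tumors the medians were 0.18 in complex I, 0.06 in complex II, 0.21 in complex III, 0.21 in complex IV and 0.14 in complex V.

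Ndufa4l2 had the largest interaction at 1.57 ± 0.29 (SE; limma adjusted p = 0.000745): its group means were 311 untreated, 221 with ADU-S100, 270.2 with anti-LTβR and 552 in the combination. Cox6b2 followed at 1.23 ± 0.30 (limma adjusted p = 0.00486) and Ndufb4 at 0.89 ± 0.23 (limma adjusted p = 0.00834), both near 20 normalized counts. Ndufa1 stood at 0.39 ± 0.11 (limma adjusted p = 0.0172), with means of 370.2, 311, 328 and 365 in the same order. Untreated tumors 1 to 4 averaged 406 and 5 to 8 averaged 335, the latter close to the single-agent means, and without the former the interaction was 0.25 (limma adjusted p = 0.127).

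Atp5g3 had means of 1561, 1387, 1351 and 1593 and an interaction of 0.40 ± 0.13 (SE; limma adjusted p = 0.0319), and Uqcrh means of 1581, 1405, 1349 and 1498 and one of 0.31 ± 0.10 (SE; limma adjusted p = 0.033). Atp5mpl, a small membrane subunit of ATP synthase, had means of 447, 376, 372 and 405 and an interaction of 0.35 ± 0.12 (SE; limma adjusted p = 0.0434). In all 3 genes untreated tumors 1 to 4 lay above 5 to 8, at 1549 to 1868 and 1274 to 1495 for Atp5g3, 1629 to 1950 and 1347 to 1501 for Uqcrh, and 475 to 581 and 338 to 420.4 for Atp5mpl. Without tumors 1 to 4 the interactions were 0.25, 0.16 and 0.15 and none passed (limma adjusted p = 0.233, 0.282 and 0.378). The muscle forms Cox6a2, Cox7a1 and Cox8b stood at -1.39, -0.81 and -0.60 without passing, and the 14 muscle markers had a median interaction of -1.61 with none past the threshold.

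With the muscle marker mean as covariate, 30 of 85 members passed, all positive, beside 19.3% of all genes called, 7.52% positive and 11.8% negative. By complex these were 16 of 38 in complex I, none of 4 in complex II, 3 of 8 in complex III, 6 of 17 in complex IV and 5 of 18 in complex V. With the muscle covariate and without untreated tumors 1 to 4, 9 passed, all positive, beside 9.8% of all genes (4.09% positive and 5.71% negative). With the epithelial covariate and all tumors 28 passed, all positive, beside 18.9% of all genes (7.63% positive and 11.3% negative). Without a covariate, leaving out combination tumor 6 left Ndufa4l2, Cox6b2, Ndufb4 and Ndufa1 called and lost Atp5g3, Uqcrh and Atp5mpl, beside 16% of all genes called (6.65% positive and 9.34% negative). In the libraries above 14000000 reads Ndufa4l2 and Cox6b2 were called, beside 8.84% of all genes (4.16% positive and 4.68% negative).

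**Figure D5:**
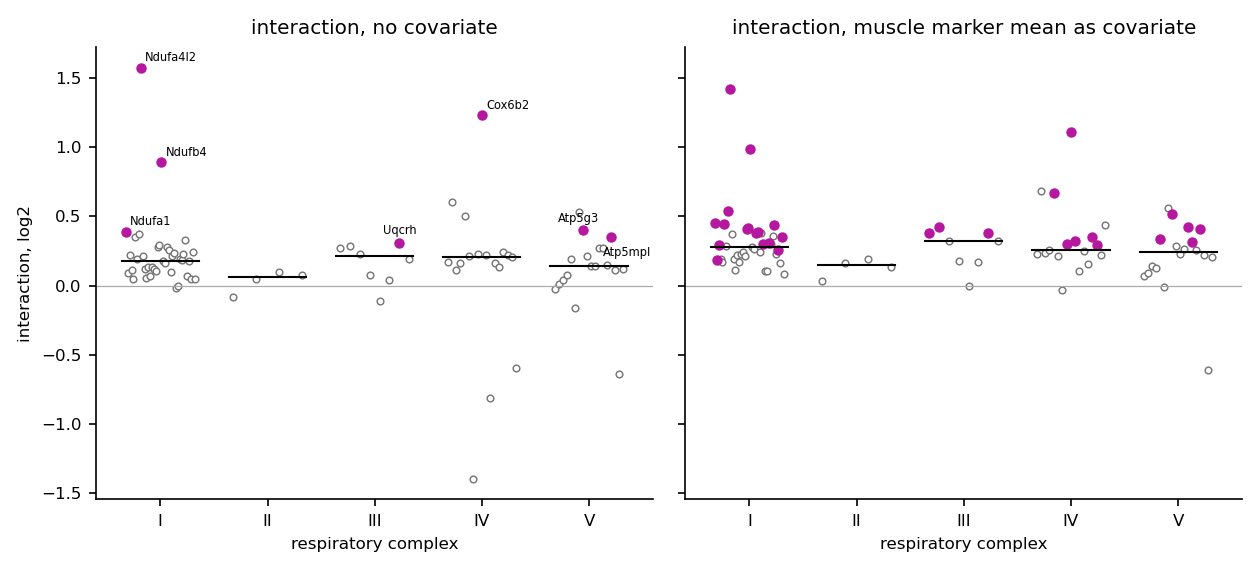
Interaction of ADU-S100 and anti-LTβR on the log2 scale (vertical axis) for the 85 members by complex, without (left) and with (right) the striated muscle marker mean as a covariate. Filled points passed a limma adjusted p of 0.05, 7 on the left and 30 on the right, all above 0, and bars are medians.

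The 13 OXPHOS subunits encoded in mitochondrial DNA had medians above 0 in each treatment against untreated tumors, but for the single agents this turned with the muscle covariate. Their median in combination against untreated tumors was 0.26, with all 13 above 0 and none past the threshold (3 had an unadjusted p below 0.05), and 0.15 with anti-LTβR (4 of 13 below 0) and 0.10 with ADU-S100 (5 of 13 below 0). With the muscle covariate the median was 0.10 in the combination, -0.09 with anti-LTβR and -0.07 with ADU-S100, with 9 of 13 below 0 for each agent alone. When untreated tumors 1 to 4 and the covariate were left out, the medians were 0.34 in the combination, 0.22 with anti-LTβR and 0.16 with ADU-S100, with all 13 above 0 in each, and the medians of the 85 nuclear members in that fit were also above 0, at 0.07, 0.02 and 0.05. The summed level of the 13 ran from 296849 to 456268 normalized counts in untreated and from 326836 to 654044 in combination tumors.

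Among the factors that build the chain, 13 of 43 OXPHOS assembly factors fell and 2 rose in the combination against untreated tumors, with a median of -0.13. Beside this and the list counts that follow for the same comparison stand 23.6% of all genes tested that fell and 19.6% that rose. Sco2, which delivers copper to complex IV, fell by 0.49 ± 0.10 (limma adjusted p = 0.000707). Sdhaf2, which attaches the flavin to Sdha, fell by 0.29 ± 0.06 (limma adjusted p = 0.00139), while Sdha itself was not called. Of 24 electron carrier and nucleotide exchange genes 7 fell and none rose, among them the ubiquinone synthesis genes Coq5 at -0.36 (limma adjusted p = 0.00255) and Coq2 at -0.21 (limma adjusted p = 0.0115). Of 78 mitochondrial ribosomal protein genes 42 fell and none rose, with a median of -0.23, and of 94 cytosolic ones 63 fell and 4 rose, with a median of -0.32. The mean log2 level of the assembly factors was 7.765 to 7.981 in untreated tumors 1 to 4 and 7.581 to 7.711 in 5 to 8. The means of the carrier and exchange genes overlapped (9.169 to 9.351 and 8.962 to 9.215). Untreated tumors 1 to 4 also stood apart for both ribosomal lists, with 8.57 to 8.82 against 8.31 to 8.42 in 5 to 8 for the mitochondrial ones. Without them 3 assembly factors fell and 1 rose, 1 carrier and exchange gene fell, 14 mitochondrial ribosomal protein genes fell and 1 rose, and 29 cytosolic ones fell and 2 rose, beside 17.2% of all genes that fell and 15.5% that rose. Sco2, Sdhaf2 and Coq5 still passed, and Coq2 stood at -0.09 (limma adjusted p = 0.248).

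Of 23 genes of the citric acid cycle and pyruvate dehydrogenase 2 rose and 2 fell, with a median of -0.01. Those that fell were Dld, which encodes a shared dehydrogenase subunit (-0.23; limma adjusted p = 0.0048), and Dlst, of the 2-oxoglutarate dehydrogenase (-0.18; limma adjusted p = 0.00482). Of 16 tested genes of uncoupling, membrane structure and mitochondrial chaperones 9 fell and 1 rose. Hspd1, a matrix chaperonin, stood at -0.39 (limma adjusted p = 8.2e-05), and Ucp2, an uncoupling protein gene known from leukocytes, rose by 0.63 ± 0.09 (limma adjusted p = 9.1e-05). Hspd1 and Ucp2 still passed without untreated tumors 1 to 4, and Dld and Dlst stood at -0.14 each (limma adjusted p = 0.113 and 0.0653).

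Of 21 tested regulators of nuclear OXPHOS genes 8 fell and 2 rose, with a median of -0.15. The smallest p-values were those of Twnk, the mitochondrial DNA helicase gene (-0.40; limma adjusted p = 0.000133), and Myc (-0.86; limma adjusted p = 0.000233). Gabpa, the DNA-binding part of GABP, averaged 1267 in untreated and 975 in combination tumors and fell by 0.38 ± 0.07 (limma adjusted p = 0.000411). Nrf1 fell by 0.22 ± 0.07 (limma adjusted p = 0.0218). The coactivator gene Ppargc1b rose by 1.06 ± 0.21 from 18.6 to 40.3 normalized counts (limma adjusted p = 0.000727). Ppargc1a at 1.09 ± 0.50 (SE; limma adjusted p = 0.0852), Esrra at -0.10 (limma adjusted p = 0.135) and Tfam, which packages mitochondrial DNA, at -0.17 (limma adjusted p = 0.082) did not pass. In the fit without untreated tumors 1 to 4, 6 regulators fell and 2 rose, beside 17.2% of all genes that fell and 15.5% that rose. Twnk, Myc, Gabpa and Ppargc1b still passed there, while Nrf1 did not (-0.17, limma adjusted p = 0.123).

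Markers of other cells moved beside these results in combination against untreated tumors, where 19.6% of all genes rose and 23.6% fell. All 10 fibroblast markers rose (median 1.39), all 9 endothelial markers rose (median 0.92), 12 of 16 leukocyte markers rose (median 0.75) and 5 of 11 epithelial markers fell (median -0.27). The 14 muscle markers (median 1.48), 8 adipocyte markers (-0.05) and 5 erythrocyte markers (0.76) had none past the threshold. In the fit without untreated tumors 1 to 4, 9 of 10 fibroblast, 9 of 9 endothelial and 12 of 16 leukocyte markers rose. Of 12 epithelial markers 4 fell and 1 rose, beside 17.2% of all genes that fell and 15.5% that rose. Their part in the member differences was not tested beyond the covariates given above.

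Beside Ndufa4l2, 2 lists were looked at after its values were seen. Of 6 tested pericyte markers all rose in the combination against untreated tumors, with a median of 0.62, and Rgs5 rose by 0.82 ± 0.14 (limma adjusted p = 0.000265). Of 10 hypoxia-inducible genes 2 rose and 4 fell, with a median of -0.27, and Vegfa fell by 0.46 ± 0.11 (limma adjusted p = 0.00316). Of all genes 19.6% rose and 23.6% fell in this comparison. In the interaction 4 of 7 pericyte markers passed, all positive, and 2 of 10 hypoxia-inducible genes, both negative, beside 7.33% of all genes positive and 11% negative. With those 4 untreated tumors (1 to 4) left out, 4 of 7 pericyte markers rose in the combination and 3 of 7 passed in the interaction. Of the 10 hypoxia-inducible genes 1 rose, 2 fell and 0 passed limma's test of the interaction. In these fits 15.5% of all genes rose and 17.2% fell, and in the interaction 5.69% were positive and 6.61% negative. The part of pericyte content in the Ndufa4l2 difference was not tested. Of the 85 members 33, Ndufa4l2 among them, overlap a gene on the other strand, and whether counting used strand is not given in the sources used here.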

How the data were processed

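Bulk mRNA of 32 individual tumors (4 groups of 8) was analysed, with groups taken from the labels. The signal the authors deposited is a table of normalized counts (size-factor scaled reads per gene). In the same unit is a table of 52 libraries, of which 20, from another experiment, were not used. From the latter, whole reads were recovered by dividing by the worth of 1 read (100% of values whole within 0.05), 12762453 to 15591986 per library. It has rows for 61 of the 85 members, and 28.2% of the members have none there, beside 5.33% of all genes, so tests on recovered reads cover 61. The submitters' processing notes name HISAT2, StringTie, STAR, Partek, DESeq2 and edgeR and the build mm39. By its label the 32-library table is a Partek export, and the methods give HISAT2, StringTie and DESeq2 for the mouse tumors. For bulk libraries the study's reporting summary names STAR run in Partek against human gene models, so which aligner made the mouse table is not clear. The score and p-value columns the authors deposited for gene sets hold their own enrichment results and were not used. Per-sample columns left unused number 0.

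Members and lists were chosen with earlier results of these data known. Each comparison was fitted to log2(value + 1) over its 16 libraries with the trend test of limma 3.58.1 in R 4.3.3, and the interaction all 32. Genes passed filterByExpr of edgeR 4.0.16 at a minimum of 10, p-values were adjusted by Benjamini-Hochberg over all genes tested, and the threshold was 0.05. Exon lengths and positions are from GENCODE M21 on GRCm38, since the deposited coordinates are of another build. Genes named are the isoform sets, the Sdh genes, in complexes I, III, IV and V the 3 smallest and the largest adjusted p in combination against untreated tumors, in the other comparisons the 3 smallest p, all called members, and the extremes per kilobase. Named with them are 6 regulators and up to 2 genes per list with the smallest p. Others were chosen after their values were seen. Some items are counted or used but not reported by name here. The study's text describes the 32 libraries both as 1 experiment and as 2 experiments combined. Which tumor belongs to which, and whether tumors shared a mouse, cage or day, is not given in the sources used here. The scripts were tested on simulated data. The alternatives were library totals, TMM on the deposited values, edgeR with TMM or RLE and DESeq2 1.42.0 on recovered reads, no filter, at least 10 in every library, a pseudocount of 0.5, all 4 groups in 1 fit, the replicate number as a block, a 2-fold limit, and libraries above 14000000 reads. Chosen after seeing the data were the muscle and epithelial covariates, leaving out combination tumor 6, untreated tumors 1 to 4 (with and without the muscle covariate) or untreated tumors 5 to 8, and only genes in both tables. Nothing in the labels ties a replicate number to a mouse, litter or day.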

Additional observations from a re-analysis of the deposited data

Results flagged for a closer look

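Ndufa4l2 (interaction 1.57), Cox6b2 (1.23), Ndufb4 (0.89), Atp5g3 (0.40), Ndufa1 (0.39), Atp5mpl (0.35) and Uqcrh (0.31) are set apart because the effect of ADU-S100 differed with and without anti-LTβR by limma's test of the interaction, on the log2 scale. For all 7 the interaction was positive. Without untreated tumors 1 to 4, which stood apart from 5 to 8, only those of Ndufa4l2, Cox6b2 and Ndufb4 passed.

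In 112 groups of 8 tumors examined, 10 held a tumor far from the others of its group, and chance gives about 5% of groups. The groups reuse the same tumors over members that move together, so they are not independent and no excess over chance is shown. Combination tumor 6 was such a tumor for the complex V mean (10.02, others 9.34 to 9.56, log2 scale). It was so for Ndufa12 (387 normalized counts, others 233 to 294), Uqcrc2 (2028, others 1286 to 1614), Cox5a (1286, others 783 to 1010), Atp5g3 (2150, others 1230 to 1649) and Atp5mpl (527, others 350.1 to 422). It also had the highest muscle marker mean of all tumors, and the part of muscle content in these values was not tested.

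ADU-S100 tumor 6 was low for Atp5b (9014, others 10340 to 11270) and high for Cox6b2 (24.1, others 6.87 to 13.8). ADU-S100 tumor 4 was high for Cox6a1 (1362, others 1128 to 1218). Anti-LTβR tumor 3 was high for Ndufa4l2 (527, others 189 to 285).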

How the results depend on the processing

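In combination against untreated tumors (6 members called) the count was 2 with edgeR on recovered reads under TMM or RLE, with DESeq2, and over genes in both tables. Of all genes the edgeR fits called 6662 and 6647, and DESeq2 6957, of 15722. Over genes in both tables it was 6704 of 15662, beside 7305 of 16909 in the fit used above. For anti-LTβR (5 called) the count was 2 with edgeR under TMM or RLE, 0 over genes in both tables, 2 without a filter, 11 with library totals and 14 with all 4 groups in 1 fit. Of all genes these fits called 2363 and 2356 of 15526 (edgeR), 2247 of 15452, 2075 of 27524, 2568 of 16689 and 3366 of 17649. The fit used above called 2555 of 16691. The recovered-read and both-table fits hold 61 members and leave out Ndufa12, Cox6a1, Atp5d, Ndufs8 and Uqcr11. In the interaction (7 called) the count was 12 with library totals and 11 with DESeq2. These fits called 2853 of 17649 and 3281 of 16481 genes, beside 3240 of 17649 in the fit used above.

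In the libraries above 14000000 reads, which leave out 7, the count was 1 for anti-LTβR against untreated, 1 for the combination against anti-LTβR (3 called), 15 against ADU-S100 (5 called) and 2 in the interaction. Of all genes these fits called, in the same order, 1537 of 16862, 1450 of 16975, 6754 of 16830 and 1568 of 17733. The 2-fold limit left 0 against untreated tumors for both anti-LTβR and the combination, and 1 in the combination against each agent alone. With the muscle covariate, chosen after seeing the data, the counts were 18, 14, 6, 12 and 30 for combination and anti-LTβR against untreated, combination against anti-LTβR and against ADU-S100, and the interaction. With the epithelial covariate, also chosen afterwards, they were 13, 0, 8, 8 and 28. Of all genes that covariate called 5057 of 16932 in combination against anti-LTβR and 8384 of 16811 against ADU-S100. Without combination tumor 6 the counts were 13 against untreated, 2 against anti-LTβR, 6 against ADU-S100 and 4 in the interaction. Of all genes 3676 of 17055 were then called against anti-LTβR and 7404 of 16937 against ADU-S100. Without untreated tumors 1 to 4, which stood apart, the counts were 2 and 0 for combination and anti-LTβR against untreated and 3 in the interaction, and without untreated tumors 5 to 8 they were 34, 57 and 37, with 41 for ADU-S100 against untreated. Without tumors 1 to 4 and with the muscle covariate they were 3 for the combination, 1 for anti-LTβR and 9 in the interaction. These fits were also chosen after seeing the data. The cause of these moves was not tested.

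The labels give no pairing by replicate number, and same-numbered tumors had correlations above 0.1 in 2 to 6 of 8 pairs. Their mean was 0.186 for ADU-S100 against untreated and 0.173 for combination against anti-LTβR. Tumors of other numbers had -0.029 and -0.025 there. In the other comparisons the mean of same-numbered tumors ran from -0.0855 to 0.0181. With the number as a replicate block, 2 members were called for anti-LTβR against untreated tumors, and 6, 0, 4, 4 and 8 in combination against untreated, ADU-S100 against untreated, combination against anti-LTβR and against ADU-S100, and the interaction. Of all genes the block fit called 1660 of 16691 in the first. In the others, in order, it called 6938 of 16909, 2 of 16613, 4561 of 16932, 7281 of 16811 and 3300 of 17649. ADU-S100 against untreated tumors gave 0 members under all alternatives run but the 1 without untreated tumors 5 to 8.

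The median difference of the members changed sign without untreated tumors 1 to 4, to 0.07, 0.02 and 0.05 for combination, anti-LTβR and ADU-S100 against untreated tumors and to -0.02 in the interaction. It kept its sign there under the other alternatives run. Against anti-LTβR alone it reached -0.00 without combination tumor 6, and against ADU-S100 alone -0.09 in the deeper libraries and -0.05 without that tumor. Ndufa4l2 was called in the 4 tests that called it under all alternatives run other than the 2-fold limit, which its difference of 0.80 against untreated tumors missed. Over the named members in each comparison, counted once per alternative other than the 2-fold limit, 63 calls were lost and 25 gained.

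No limit of detection was computed for 8 tumors a group, so a member that was not called is not shown to be unchanged. Cell content and expression per cell were measured together.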
